A study of Homo sapiens with 8 samples.

Results

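The E2F transcription factors and the pocket proteins that bind them set the pace at which a cell leaves G1, and their transcripts were followed here in leukemic cells treated with a CDK4/6 inhibitor, an LSD1 inhibitor or both. The 10 genes E2F1 to E2F8, RBL1 and RBL2 were taken by symbol from a deposited table of 26364 genes, and all 10 were among the 14151 tested genes, which had 1 TPM or more in no fewer than 2 libraries. TPM (transcripts scaled to a fixed total) is a level that is already divided by gene length, so levels of different genes can be set side by side. RNA-seq had been made from MV4-11, an established human AML cell line that carries FLT3-ITD and an MLL-AF4 fusion, with 8 libraries in 4 groups of 2. Control cells received DMSO, a TCP group received 5 μM of tranylcypromine (TCP), which inhibits the histone demethylase LSD1, a palbociclib group received 0.5 μM of palbociclib, which inhibits CDK4 and CDK6, and the combination group received both molecules at these doses. The libraries were taken at day 4 by the labels, while the methods place palbociclib alone on the opening day of every in vitro treatment, so the number of days with TCP is uncertain. All groups come from the same cell line, and the methods describe coculture of the lines on HS-5 stromal cells without saying whether this holds for RNA-seq.

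All 8 myeloid leukemia markers that were checked, PTPRC, SPI1, CD33, FLT3, HOXA9, MEIS1, CSF1R and CD4, were at 14.6 TPM or more in every library. Of 15 stromal markers, 9 passed the filter, POSTN was at 0 TPM in all 8 libraries, and LUM was at 0 TPM in the 4 libraries without palbociclib. The summed stromal level was 25.05 and 37.8 TPM in control, 37.5 and 43.1 TPM with TCP, 36.4 and 178.0 TPM with palbociclib, and 51.8 and 68.4 TPM with the combination, so that palbociclib replicate 2 stood apart. The share of all TPM in the 10 most abundant genes was 9.12% to 9.67% in control and TCP libraries and 13.96% to 15.8% with palbociclib or the combination. TPM sum to 1000000 in each library and keep no depth, so the depth is unknown, and the median gene moved by -0.16 on the log2 scale with palbociclib and by -0.22 with the combination against control. In bulk RNA, fewer cells of a type and less RNA per cell cannot be told apart.

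E2F1, E2F2 and E2F3 are the activators of the family: each binds DNA with a DP partner and switches on genes for DNA replication at the G1/S border. E2F4 and E2F5 act mainly as repressors by carrying the pocket proteins p107 (RBL1) and p130 (RBL2) to promoters, where p130 or p107, E2F4 and the MuvB core form the DREAM complex in cells that have left the cycle. E2F6 represses without pocket proteins, as part of a Polycomb complex, and the atypical factors E2F7 and E2F8 bind DNA without a DP partner and shut off E2F targets later in S phase. CDK4 and CDK6 phosphorylate pocket proteins and so release E2F, which is the step that palbociclib blocks. E2F1, E2F2, E2F7, E2F8 and RBL1 are themselves known E2F target genes.

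The promoters of 6 members are shown, of which some fell with palbociclib or the combination and some did not. Each is the run of 250 bases that ends just before the RefSeq transcription start, on GRCh38.p14 and read along the gene's own strand, and capitals mark matches on either strand to 1 of 4 spellings of the E2F motif, TTTCCCGC, TTTGGCGC, TTTCGCGC and TTTGCCGC. E2F1 (chr20:33686386-33686635, minus strand) and RBL1 (chr20:37095998-37096247, minus strand) fell and hold 2 matches each. E2F2 (chr1:23531234-23531483, minus strand) and E2F3 (chr6:20401629-20401878, plus strand) hold 1 match each. E2F2 was called lower with the combination and not with palbociclib alone, and E2F3 was called with neither. E2F7 (chr12:77065570-77065819, minus strand) fell and holds no match in this window, and RBL2 (chr16:53434221-53434470, plus strand), which did not fall, holds none either. Not shown are E2F6, which fell with both treatments, and E2F4, which was called with neither, and both hold no match. Members that fell and members that did not were thus each found both with and without a match in this window. The same search found a match in 10 of 25 known G1/S target genes of E2F, so a window without a match can belong to a known target. Whether these sites bear on the changes was not tested.
E2F1 promoter: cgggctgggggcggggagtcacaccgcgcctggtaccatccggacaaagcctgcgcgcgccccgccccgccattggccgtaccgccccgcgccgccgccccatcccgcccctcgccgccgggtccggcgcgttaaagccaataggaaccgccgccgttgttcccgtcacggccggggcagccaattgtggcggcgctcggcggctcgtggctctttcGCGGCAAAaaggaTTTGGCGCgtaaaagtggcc
RBL1 promoter: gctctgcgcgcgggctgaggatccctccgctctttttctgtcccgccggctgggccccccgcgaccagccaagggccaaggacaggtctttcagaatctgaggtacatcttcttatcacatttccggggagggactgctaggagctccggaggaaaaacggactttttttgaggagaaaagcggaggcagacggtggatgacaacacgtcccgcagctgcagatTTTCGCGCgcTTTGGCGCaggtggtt
E2F2 promoter: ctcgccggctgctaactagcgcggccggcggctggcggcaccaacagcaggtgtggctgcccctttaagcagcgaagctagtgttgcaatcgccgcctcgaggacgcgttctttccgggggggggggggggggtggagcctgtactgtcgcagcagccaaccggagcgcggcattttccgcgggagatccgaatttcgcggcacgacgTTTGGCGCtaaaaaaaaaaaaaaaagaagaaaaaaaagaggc
E2F3 promoter: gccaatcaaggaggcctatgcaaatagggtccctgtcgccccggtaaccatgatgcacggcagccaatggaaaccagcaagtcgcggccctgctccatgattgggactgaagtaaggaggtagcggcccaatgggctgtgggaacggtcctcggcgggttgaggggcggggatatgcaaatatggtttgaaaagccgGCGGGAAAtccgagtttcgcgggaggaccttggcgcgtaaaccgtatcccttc
E2F7 promoter: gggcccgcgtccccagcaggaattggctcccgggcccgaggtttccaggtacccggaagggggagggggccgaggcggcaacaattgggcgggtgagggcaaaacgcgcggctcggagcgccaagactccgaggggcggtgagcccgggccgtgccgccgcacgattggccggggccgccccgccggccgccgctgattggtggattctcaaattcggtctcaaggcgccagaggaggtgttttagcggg
RBL2 promoter: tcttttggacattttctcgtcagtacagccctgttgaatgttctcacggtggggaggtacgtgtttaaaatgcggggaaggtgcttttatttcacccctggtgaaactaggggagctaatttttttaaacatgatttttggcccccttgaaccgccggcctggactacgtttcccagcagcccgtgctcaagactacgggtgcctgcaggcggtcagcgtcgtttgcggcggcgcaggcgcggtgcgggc

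In E2F1 the matches lie at positions -33 to -26 and -20 to -13 from the start, and in RBL1 at -26 to -19 and -16 to -9. The match of E2F2 lies at -42 to -35 and that of E2F3 at -53 to -46. Of the 8 members with an entry in the promoter table, 4 hold a match, while E2F4, E2F6, E2F7 and RBL2 hold none, and E2F5 and E2F8 have no entry. Over all 35116 promoters of the same length, 2.79% hold an E2F match. The CHR motif TTTGAA, searched on both strands, to which the MuvB subunit LIN54 binds, occurs in 13.3% of all promoters and in 1 of the 8 members, at -65 to -60 in E2F3. These matches describe letters in the window and say nothing of whether a factor binds there.

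The levels in control cells differed widely between the members. E2F4 led with 119.7 ± 5.72 TPM (SD, n = 2 here and for every mean below), followed by RBL2 at 110.5 ± 5.63 TPM and E2F1 at 57.2 ± 8.98 TPM. E2F3 at 38.9 ± 4.82 TPM and RBL1 at 38.2 ± 3.14 TPM overlapped, as did E2F8 at 17.6 ± 2.39 TPM and E2F2 at 15.8 ± 0.587 TPM. The lowest were E2F6 at 14.3 ± 0.943 TPM, E2F5 at 7.94 ± 1.31 TPM and E2F7 at 4.70 ± 0.502 TPM. RBL2 was therefore the pocket protein transcript that prevailed over RBL1 already without treatment, and E2F4 the E2F transcript that prevailed over all others. With palbociclib the order at the top turned, with RBL2 at 123.5 ± 8.13 TPM above E2F4 at 105.7 ± 2.69 TPM in both libraries, and E2F8 dropped in rank below E2F6. With the combination E2F3 at 31.6 ± 1.08 TPM lay above E2F1 at 24.1 ± 4.42 TPM, whereas these 2 genes overlapped with palbociclib alone, and no neighbours in the order overlapped between their libraries.

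**Figure D1:**
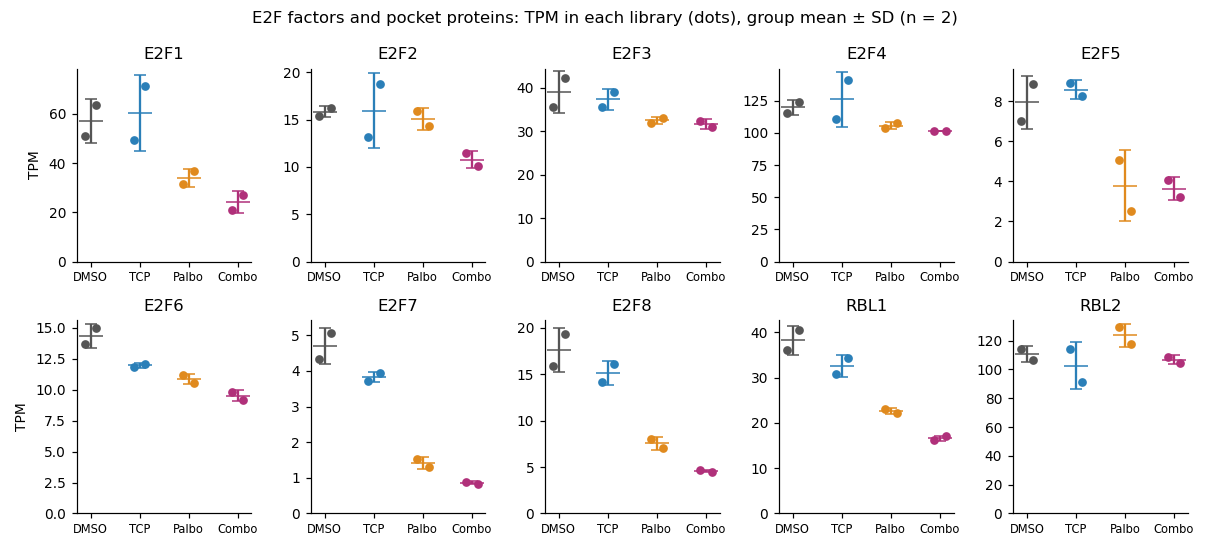
TPM of the 10 genes (y axis, from 0) in control (DMSO), TCP, palbociclib (Palbo) and combination (Combo) libraries. Dots are single libraries and bars the group mean ± SD (n = 2). Palbociclib libraries lie below control without overlap in 8 genes, all but E2F2 and RBL2, as in 49.7% of all tested genes. Combination libraries do so in 9 genes, all but RBL2, as in 54.2% of all tested genes. RBL2 stays between 91.1 and 129.3 TPM.

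Palbociclib lowered 6 of the 10 genes: E2F1, E2F5, E2F6, E2F7, E2F8 and RBL1. The largest decreases were in the atypical factors E2F7 and E2F8, and no member was called higher. In limma over all 8 libraries, with a Benjamini-Hochberg adjusted p below 0.05 taken as a call, 30.2% of all tested genes were called lower and 14.8% higher, so 6 of 10 is to be read against that share. By the stricter rule for differentially expressed genes (DEG, a log2 change of 1 or more in size with an adjusted p under 0.01) 2 members passed, E2F7 and E2F8, against 9.1% of all tested genes, and under median-ratio scaling 1 passed, E2F7, against 8.7%. The calls of E2F1, E2F5 and E2F6 did not hold without palbociclib replicate 2 or without control replicate 2. Either fit leaves a single library in a group, and fewer genes were then called over the whole table as well. Without palbociclib replicate 2 the changes were -0.83 for E2F1, -0.56 for E2F5 and -0.33 for E2F6. Among all called genes 32.8% were higher, a share that becomes 50.3% when the libraries are rescaled by their median ratio. The libraries of 8 members lay below control without overlap, and 49.7% of all tested genes did the same. Those of 1 member, RBL2, lay above control without overlap, as did 26.5% of all tested genes, and under median-ratio scaling RBL2 was called higher (0.32, adjusted p = 0.0379). The median change of the members was -0.55 on the log2(TPM + 1) scale, on which all changes below are given and which understates the change of low genes.

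The combination lowered 7 members, the same 6 and E2F2, against 37.6% of all tested genes called lower and 15.9% higher. DEG numbered 4, E2F1, E2F7, E2F8 and RBL1, against 13.7% of all tested genes, and 2 under median-ratio scaling, E2F7 and E2F8, against 12.6%. The share of higher calls over the whole table was 29.8%, and 50.1% under median-ratio scaling. The libraries of 9 members, all but RBL2, lay below control, as did those of 54.2% of all tested genes. The members' median was -0.75. The palbociclib and combination comparisons share the control libraries, so their likeness is not independent evidence. Against TCP the combination lowered 7 members, with 33.8% of all tested genes called lower, and 3 were DEG (E2F1, E2F7 and E2F8) against 12.2%. Without combination replicate 2, which leaves a single library in that group, fewer members were called, and fewer genes over the whole table. In that comparison 9 members, again all but RBL2, had libraries below those with TCP, as had 48.9% of all tested genes.

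**Figure D2:**
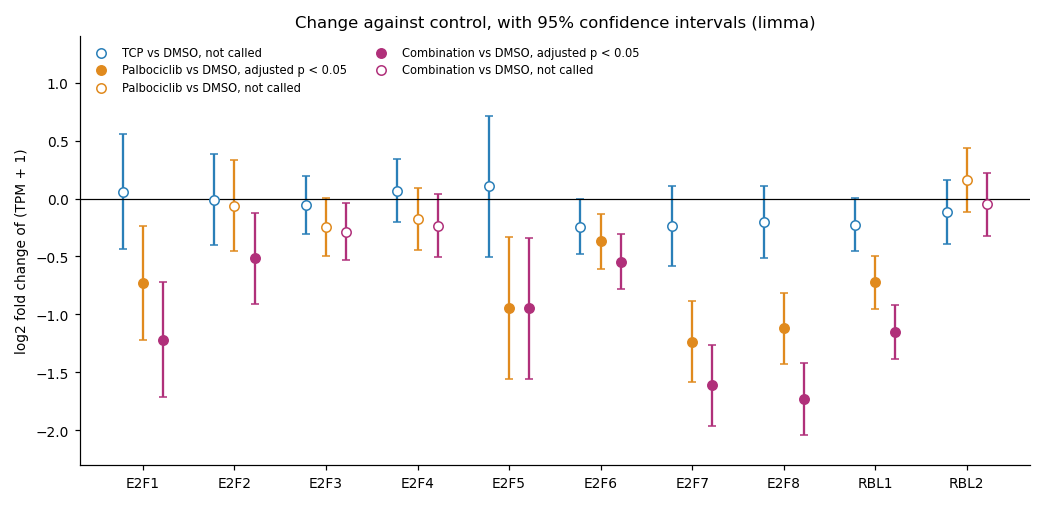
Log2 fold change of (TPM + 1) against control (y axis) for each gene with TCP, palbociclib and the combination, with 95% confidence intervals from limma. Filled points passed an adjusted p of 0.05, which holds for 6 genes with palbociclib, 7 with the combination and 0 with TCP, and E2F7 and E2F8 lie lowest with both treatments.

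Among the activators, E2F1 (chr20:32263283-32274191 on GRCh37) was the member most affected. Its level was 50.9 and 63.6 TPM in control, 49.5 and 71.1 TPM with TCP, 31.5 and 36.7 TPM with palbociclib, and 21.0 and 27.2 TPM with the combination. Control and TCP libraries overlapped, both palbociclib libraries lay below them, and both combination libraries lay below palbociclib. E2F1 fell with palbociclib by 0.73 (SE 0.21, adjusted p = 0.0270), a call that is lost when the libraries are rescaled by their median ratio (-0.56, adjusted p = 0.0909) or by quantiles (-0.58, adjusted p = 0.0703). It also fell with the combination (-1.22, SE 0.21, adjusted p = 0.00272), and for the combination against TCP (-1.28, SE 0.21, adjusted p = 0.00244).

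E2F2 (chr1:23832930-23857725), another activator of the family, stood at 15.4 and 16.2 TPM in control, 13.1 and 18.7 TPM with TCP, 15.9 and 14.3 TPM with palbociclib, and 11.4 and 10.1 TPM with the combination. Only the combination libraries lay apart, below all others. The change with palbociclib was -0.06 (SE 0.17, adjusted p = 0.780), and under median-ratio scaling the sign turned (0.09). With the combination E2F2 fell by 0.52 (SE 0.17, adjusted p = 0.0345), which does not hold under median-ratio scaling (-0.30, adjusted p = 0.210), under quantile scaling (-0.30, adjusted p = 0.232) or when any 1 of the control, palbociclib or combination libraries is left out.

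E2F3 (chr6:20402110-20493945) kept most of its level: 35.5 and 42.3 TPM in control, 35.6 and 39.0 TPM with TCP, 32.0 and 33.1 TPM with palbociclib, and 32.4 and 30.8 TPM with the combination. The treated libraries lay below control by a small step, with changes of -0.25 (95% interval -0.49 to 0.00, adjusted p = 0.0950) for palbociclib and -0.29 (-0.53 to -0.04, adjusted p = 0.0533) for the combination. With the replicate block, which pairs libraries of the same number, the latter was called (adjusted p = 0.0298), whereas it shrank under median-ratio scaling (-0.06, adjusted p = 0.687) and under quantile scaling (-0.07, adjusted p = 0.627). The table gives 1 value per gene, so the E2F3a and E2F3b transcripts cannot be told apart.

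The ratio of E2F3 to E2F1 within a library does not change when all TPM of that library are multiplied by the same factor. It was 0.681 ± 0.0228 in control, 0.633 ± 0.121 with TCP, 0.958 ± 0.0807 with palbociclib and 1.34 ± 0.290 with the combination. Transcripts of the activators thus became more evenly shared between E2F1 and E2F3 with palbociclib, and E2F3 exceeded E2F1 with the combination.

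Of the repressors, E2F4 (chr16:67226058-67232821), which supplies most of the E2F bound to pocket proteins in resting cells, stayed the most abundant E2F. It was at 115.7 and 123.8 TPM in control, 111.1 and 141.4 TPM with TCP, 103.8 and 107.6 TPM with palbociclib, and 101.3 and 101.7 TPM with the combination. The palbociclib and combination libraries were lower than control without overlap, yet the changes did not pass the test, at -0.18 (95% interval -0.45 to 0.09, adjusted p = 0.243) and -0.24 (-0.51 to 0.04, adjusted p = 0.123). Under median-ratio scaling they were -0.01 and -0.0062, so the step is of the size of the shift of the median gene. Against TCP the change was -0.30 (SE 0.11, adjusted p = 0.0636), and it was called with the replicate block (adjusted p = 0.0278), but was smaller under median-ratio (-0.12, adjusted p = 0.515) and quantile scaling (-0.13, adjusted p = 0.367).

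E2F5 (chr8:86089389-86129387), the other repressor, is present at a far lower level than E2F4. It had 7.01 and 8.87 TPM in control, 8.89 and 8.25 TPM with TCP, 5.04 and 2.52 TPM with palbociclib, and 4.04 and 3.22 TPM with the combination. The libraries with palbociclib, alone or combined, were below all libraries without it. E2F5 fell with palbociclib (-0.95, SE 0.26, adjusted p = 0.0225) and with the combination (-0.95, SE 0.26, adjusted p = 0.0188). The lower palbociclib value came from replicate 2, the library with the high stromal markers, and without it the change was -0.56 (adjusted p = 0.0893). E2F5 and RBL2 each overlap a protein-coding gene on the opposite strand, RBIS and AKTIP, and since the strand setting of the counting is not given in the sources used here, reads of these partners cannot be told apart.

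E2F6 (chr2:11584501-11606303), the pocket-independent repressor, was at 13.7 and 15.0 TPM in control, 11.8 and 12.1 TPM with TCP, 11.2 and 10.6 TPM with palbociclib, and 9.84 and 9.21 TPM with the combination. The 4 groups did not overlap and were ordered control, TCP, palbociclib, combination. E2F6 fell with palbociclib (-0.37, SE 0.10, adjusted p = 0.0208) and with the combination (-0.54, SE 0.10, adjusted p = 0.00354). The palbociclib call is lost under median-ratio scaling (-0.22, adjusted p = 0.122), whereas the combination remained called (-0.33, adjusted p = 0.0299). E2F6 was also the member with an unadjusted p below 0.05 for TCP alone (-0.24, SE 0.10, adjusted p = 0.547).

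The atypical factors showed the largest decreases of the family. E2F7 (chr12:77415028-77459349) had 4.34 and 5.05 TPM in control, 3.72 and 3.93 TPM with TCP, 1.54 and 1.29 TPM with palbociclib, and 0.891 and 0.835 TPM with the combination. E2F8 (chr11:19245610-19263167) had 15.9 and 19.3 TPM in control, 14.2 and 16.1 TPM with TCP, 8.01 and 7.08 TPM with palbociclib, and 4.69 and 4.51 TPM with the combination. For both genes every library with palbociclib was below every library without it, and the combination libraries were below palbociclib.

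E2F7 fell with palbociclib (-1.24, SE 0.15, adjusted p = 0.000878) and with the combination (-1.61, SE 0.15, adjusted p = 0.000199). E2F8 likewise fell with palbociclib (-1.12, SE 0.13, adjusted p = 0.000809) and with the combination (-1.73, SE 0.13, adjusted p = 9.97e-05). On the linear scale the ratio of TPM + 1 between combination and control was 0.328 for E2F7 and 0.302 for E2F8, which is not the ratio of the TPM themselves. With a pseudocount of 0.1 the changes with the combination were -2.31 for E2F7 and -1.91 for E2F8. The size and the order of these 2 decreases thus depend on the pseudocount. The calls of E2F7, E2F8 and RBL1 held in both comparisons under every alternative that tested them at the same threshold, while E2F7 was not tested under the stricter filter of a mean of at least 5 TPM.

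Of the pocket proteins followed here, RBL1 was called and RBL2 was not. RBL1 (chr20:35624752-35724400), which encodes p107 and is high in cycling cells, had 36.0 and 40.4 TPM in control, 30.8 and 34.3 TPM with TCP, 23.2 and 22.2 TPM with palbociclib, and 16.2 and 17.0 TPM with the combination. Its 4 groups followed each other downwards without overlap. RBL1 fell with palbociclib (-0.72, SE 0.10, adjusted p = 0.00139), with the combination (-1.15, SE 0.10, adjusted p = 0.000147) and for the combination against TCP (-0.93, SE 0.10, adjusted p = 0.000397).

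RBL2 (chr16:53467889-53525560), which encodes p130, the pocket protein of resting cells, had 114.5 and 106.5 TPM in control, 114.0 and 91.1 TPM with TCP, 129.3 and 117.8 TPM with palbociclib, and 108.9 and 104.6 TPM with the combination. The palbociclib libraries were the highest, and the combination overlapped control. The change with palbociclib was 0.16 (95% interval -0.11 to 0.43, adjusted p = 0.297), and the call under median-ratio scaling is the one given above. With the combination it was -0.05 (-0.32 to 0.22, adjusted p = 0.740), a sign that turns under quantile (0.12) and median-ratio scaling (0.18). RBL2 was thus neither called lower nor shown to be equal to control.

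Within a library the ratio of RBL2 to RBL1 was 3.18 and 2.63 in control, 3.70 and 2.66 with TCP, 5.58 and 5.29 with palbociclib, and 6.71 and 6.14 with the combination. Control and TCP overlapped, both palbociclib libraries lay above them, and both combination libraries lay above palbociclib. The group means were 2.91 ± 0.386, 3.18 ± 0.741, 5.44 ± 0.203 and 6.43 ± 0.404. The ratio of E2F4 to E2F1 followed the same order, with 2.11 ± 0.231 in control, 2.12 ± 0.183 with TCP, 3.12 ± 0.259 with palbociclib and 4.28 ± 0.771 with the combination. These ratios are given as a description and were not tested. Exact permutation of 2 and 2 libraries could not go below p = 0.333.

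**Figure D3:**
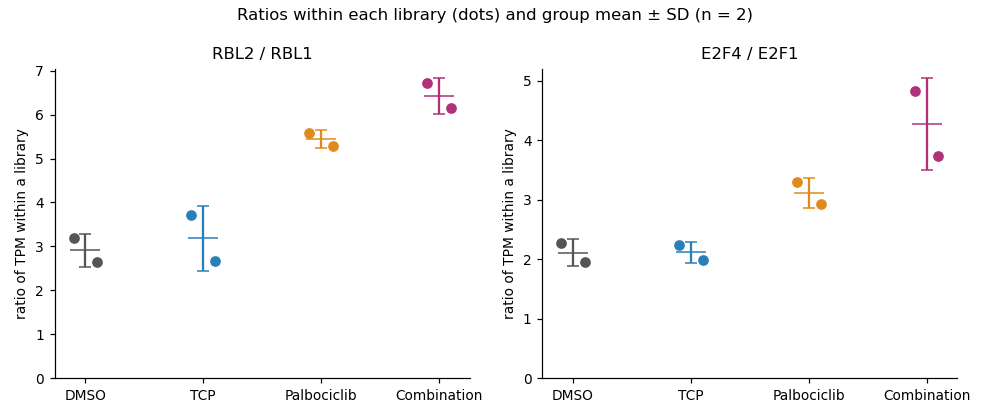
Ratios of TPM within each library (y axis, from 0) of RBL2 to RBL1 and of E2F4 to E2F1, with dots for libraries and bars for the group mean ± SD (n = 2). In both panels control and TCP libraries overlap, palbociclib libraries lie above them and combination libraries above palbociclib.

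Summed over E2F1 to E2F8, E2F transcripts stood at 276.3 ± 25.3 TPM in control, 279.2 ± 44.3 TPM with TCP, 211.1 ± 2.98 TPM with palbociclib and 186.6 ± 1.52 TPM with the combination. The activators held 40.5% ± 1.51 of this sum in control, 40.5% ± 1.33 with TCP, 38.7% ± 1.03 with palbociclib and 35.6% ± 0.9998 with the combination. The repressors E2F4 and E2F5 held 46.3% ± 1.68, 48.3% ± 0.149, 51.9% ± 0.304 and 56.3% ± 0.608, and crossed from below to above the sum of all other E2F with palbociclib. This share is mostly E2F4, and neither gene rose with palbociclib or the combination. Mean E2F4 was 119.7 TPM in control, 105.7 TPM with palbociclib and 101.5 TPM with the combination, and mean E2F5 was 7.94, 3.78 and 3.63 TPM. The other E2F also include the repressors E2F6, E2F7 and E2F8. The atypical factors went from 8.06% ± 0.310 in control and 6.84% ± 0.564 with TCP to 4.25% ± 0.453 with palbociclib and 2.93% ± 0.111 with the combination. The share of E2F6 was 4.33% to 5.20% in every group mean.

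**Figure D4:**
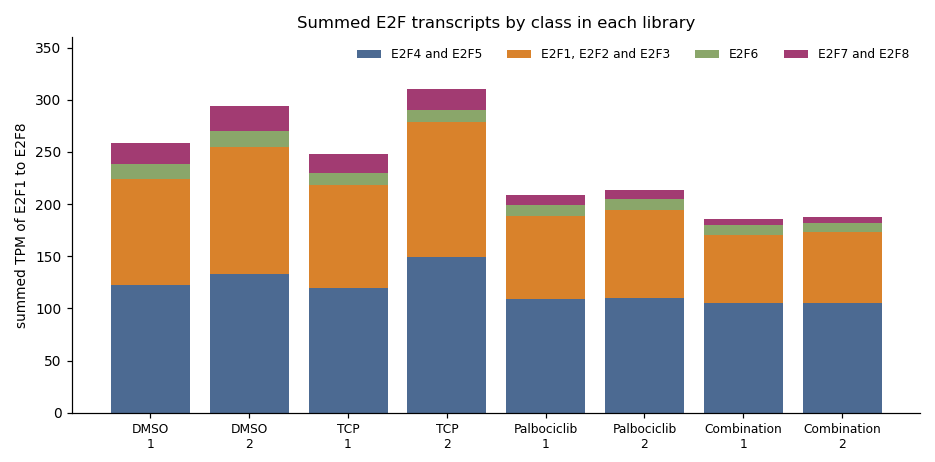
Summed TPM of E2F1 to E2F8 (y axis, from 0) in each of the 8 libraries, stacked by class. The bars of the 4 libraries with palbociclib are the shortest, and the repressor segment (E2F4 and E2F5) loses a smaller share of its control height than the activator and atypical segments.

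TCP alone left the members close to control. In limma 0 of 10 were called, against 0.431% of all tested genes, and 1 had an unadjusted p below 0.05, against 8.77% of all tested genes. The changes ran from -0.24 (E2F6) to 0.11 (E2F5). For RBL1 the 95% interval ran from -0.46 to 0.00, for E2F7 from -0.59 to 0.11 and for E2F8 from -0.51 to 0.11, so a missed threshold does not show that these genes were equal to control. The libraries of 3 members, E2F6, E2F7 and RBL1, lay below control without overlap, as did those of 22.3% of all tested genes.

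Adding TCP to palbociclib gave all 10 members an estimate below 0 on the TPM as deposited, with a median of -0.29, whereas under quantile and median-ratio scaling those of E2F3, E2F4 and E2F5 were slightly above 0. In limma 0 of 10 were called, while 1.44% of all tested genes were called lower. An unadjusted p below 0.05 was found for 4 members (E2F2, E2F7, E2F8 and RBL1) and for 17.5% of all tested genes. The nearest to the threshold were E2F8 (-0.61, SE 0.13, adjusted p = 0.0588) and RBL1 (-0.43, SE 0.10, adjusted p = 0.0680). With the replicate block 3 members were called lower, E2F1 (-0.49, adjusted p = 0.0235), E2F8 (adjusted p = 0.0356) and RBL1 (adjusted p = 0.0295), against 5.08% of all tested genes. Libraries of 8 members, all but E2F3 and E2F5, lay below palbociclib without overlap, as did those of 37.2% of all tested genes.

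The effect of TCP was set beside itself in the absence and in the presence of palbociclib, from libraries of the same replicate number. For E2F8 it was -0.15 and -0.25 without palbociclib and -0.66 and -0.55 with it, and for E2F1 -0.04 and 0.16 without and -0.56 and -0.42 with it. RBL1 moved by -0.22 and -0.23 without and by -0.49 and -0.37 with palbociclib. The difference itself, the interaction of TCP and palbociclib, was called by limma for 0 members and 0% of all tested genes. It ran from -0.55 (E2F1, SE 0.29, adjusted p = 0.890) to 0.07 (E2F6), and 0 members had an unadjusted p below 0.05, against 6.39% of all tested genes. In this fit, which does not pair libraries, the interval for E2F1 (-1.25 to 0.15) leaves room for no departure as well as for a large one. With the replicate block, which pairs them, the interaction was also called for 0 members and for 0 of all tested genes.

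The genes that work with the members, from lists of known partners, were followed in the same fit. The DP partner TFDP1, which dimerizes with E2F1 to E2F6, was at 254.5 and 242.8 TPM in control, 182.8 and 159.8 TPM with palbociclib, and 160.2 and 154.4 TPM with the combination. It fell with palbociclib (-0.54, SE 0.08, adjusted p = 0.00250) and with the combination (-0.66, SE 0.08, adjusted p = 0.000767). TFDP2 lay between 5.72 and 9.87 TPM and was not called, with 0.17 and -0.03, and TFDP3 was at 0.0606 TPM in 1 library and at 0 TPM in the other 7, and was not tested.

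Of 9 genes of the MuvB core and the DREAM and B-MYB complexes, 6 fell with palbociclib and 7 with the combination. Of all tested genes 30.2% and 37.6% were called lower, and the medians of the list were -0.40 and -0.64. Changes of single genes are given for palbociclib and then for the combination. MYBL2 (B-MYB), a subunit of the activating form, fell (-0.90 and -1.64), and so did FOXM1, which drives mitotic genes together with it (-1.15 and -1.63). The core subunit LIN9 fell (-0.83 and -1.44), and it also fell when TCP was added to palbociclib (-0.61, SE 0.12, adjusted p = 0.0474). With the replicate block 3 genes of the list were called lower on adding TCP, against 5.08% of all tested genes. They were LIN9 (adjusted p = 0.0239), MYBL2 (-0.74, adjusted p = 0.0104) and FOXM1 (-0.47, adjusted p = 0.0378). The DNA-binding subunit LIN54 fell (-0.49 and -0.78), and the histone chaperone RBBP4 (-0.33 and -0.54).

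Of 13 partners of E2F6 in Polycomb complexes, 4 fell with palbociclib and 9 with the combination, against 30.2% and 37.6% of all tested genes. The palbociclib count is thus near the share of all genes. With the replicate block 7 and 11 fell. The block also raised calls in either direction over the whole table, from 6369 to 7849 and from 7581 to 8711. Medians of the list were -0.37 and -0.43. PCGF6, the subunit that defines the E2F6 form of the complex, fell (-0.91 and -1.10), and the heterochromatin protein CBX3 (-0.64 and -0.89). WDR5 fell (-0.51 and -0.71) and the histone methyltransferase EHMT1 (-0.38 and -0.43). YAF2 was called with the combination (-0.65, SE 0.17, adjusted p = 0.0168) and not with palbociclib (-0.38, adjusted p = 0.113). RYBP went the other way and was called higher only with the replicate block, for the combination (0.27, adjusted p = 0.0328) and for the combination against palbociclib (0.44, adjusted p = 0.0324).

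Of 15 CDKs, cyclins and CDK inhibitors that act on pocket proteins, 6 fell and 1 rose with palbociclib, and 8 fell and 2 rose with the combination. Of all tested genes 30.2% were called lower and 14.8% higher with palbociclib, and 37.6% lower and 15.9% higher with the combination. The counts of this list are to be read against those shares. CDK4 fell (-0.77 and -1.07), and CDK2, which completes the phosphorylation of pocket proteins with cyclin E, (-1.06 and -1.64). CDKN2A, whose single value covers the transcripts of both the INK4 inhibitor p16 and ARF, fell (-0.94 and -1.35), and so did the INK4 inhibitor CDKN2C (p18) (-0.55 and -0.64). Cyclin D3 went the other way. CCND3 had 207.7 and 197.9 TPM in control, 338.6 and 359.1 TPM with palbociclib, and 366.1 and 410.0 TPM with the combination, and rose by 0.78 (SE 0.09, adjusted p = 0.000687) and by 0.93 (SE 0.09, adjusted p = 0.000221). CDKN1C (p57) rose with the combination by 0.88 (SE 0.20, adjusted p = 0.00979) from 1.83 and 1.34 TPM in control to 3.38 and 4.14 TPM.

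A list of 8 genes covered the degradation of E2F factors or their partners, its regulation and the end of E2F1 binding to DNA. Of these, 7 fell with palbociclib and 8 with the combination. Of all tested genes 30.2% and 37.6% were called lower, and the medians of the list were -0.90 and -1.36. Cyclin A2, whose kinase complex ends E2F1 binding to DNA in S phase, was at 136.1 and 147.2 TPM in control, 57.4 and 47.5 TPM with palbociclib, and 32.4 and 34.6 TPM with the combination. CCNA2 fell (-1.42 and -2.05). CCNF, the F-box cyclin that marks E2F factors for degradation, fell (-1.01 and -1.44), CKS1B (-0.96 and -1.73), FBXO5 (EMI1) (-0.84 and -1.27), and CDC20 (-1.40 and -1.76).

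The known targets gave the broadest change. All 30 G1/S target genes fell with palbociclib, 19 of them as DEG, and all 30 fell with the combination, 29 of them as DEG. Of all tested genes 30.2% and 37.6% were called lower, and 9.1% and 13.7% were DEG. The medians of the 30 were -1.08 and -1.61, against -0.55 and -0.75 for the members and -0.16 and -0.22 for all genes tested. The replication licensing factor CDT1 was at 137.6 and 130.2 TPM in control, 106.5 and 118.2 TPM with TCP, 53.7 and 55.4 TPM with palbociclib, and 30.9 and 31.6 TPM with the combination. CDT1 fell (-1.28 and -2.07), POLE2 (-1.33 and -2.20), CHEK1 (-1.55 and -2.19), ORC1 (-1.43 and -1.87), and MCM6 (-1.16 and -1.65).

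With TCP alone 0 of the 30 were called by limma, against 0.431% of all tested genes, and the median was -0.11. An unadjusted p below 0.05 was found for 2 of the 30, against 8.77% of all tested genes. When TCP was added to palbociclib 8 of the 30 fell, against 1.44% of all tested genes called lower, with a median of -0.49. With the replicate block 21 fell, against 5.08%. Among the 8 called without the block were CDT1 (-0.78, SE 0.08, adjusted p = 0.00649) and POLE2 (-0.87, SE 0.14, adjusted p = 0.0238). The interaction of TCP and palbociclib was called by limma for 0 of the 30. Its estimate was below 0 for all 30, with a median of -0.41. An unadjusted p below 0.05 was found for 15 of the 30, against 6.39% of all tested genes. These genes come from the same 8 libraries, so such counts are not independent. Of the 25 G1/S target genes with a promoter entry, 10 hold an E2F match (40%) and 1 a CHR match (4%).

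All 26 G2/M genes, which DREAM represses through CHR elements, also fell with both treatments, 19 of them as DEG with palbociclib and 25 with the combination. The shares of all tested genes are those given for the G1/S list. Medians of the 26 were -1.16 and -1.67. CDK1 was at 103.5 and 94.9 TPM in control, 45.7 and 40.9 TPM with palbociclib, and 24.2 and 24.2 TPM with the combination. CDK1 fell (-1.18 and -1.99), CCNB2 (-1.25 and -1.78), BUB1B (-1.65 and -2.07), TPX2 (-1.27 and -1.84), and AURKB (-1.66 and -2.11). On adding TCP to palbociclib 8 of the 26 fell, and 18 with the replicate block, against 1.44% and 5.08% of all tested genes. The interaction was called by limma for 0 of the 26. Its estimate was below 0 for all 26, with a median of -0.36. An unadjusted p below 0.05 was found for 12 of them, against 6.39% of all tested genes. Of the 21 with a promoter entry, 12 hold a CHR match (57.1%) and 2 an E2F match (9.52%).

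**Figure D5:**
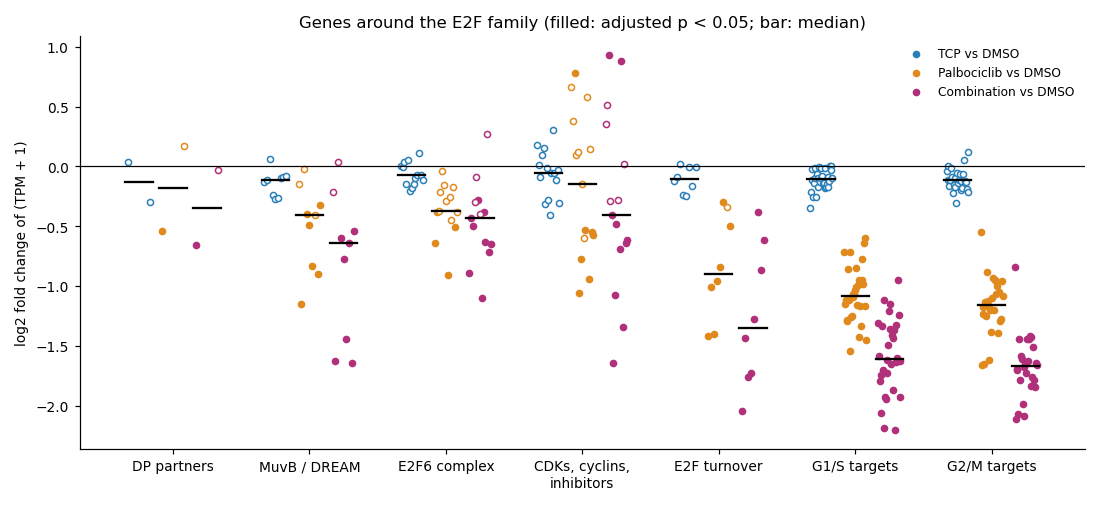
Log2 fold change of (TPM + 1) against control (y axis) of each tested gene in 7 lists around the E2F family, with TCP, palbociclib and the combination. Filled points passed an adjusted p of 0.05 and bars are medians, and with palbociclib and the combination the G1/S and G2/M targets lie lowest as groups, with medians of -1.61 and -1.67 for the combination, while with TCP their medians of -0.11 and -0.12 lie among those of the other lists.

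The genes whose pattern over the 8 libraries came nearest to a member's were found from the root mean square difference of log2(TPM + 1) profiles, each taken relative to its own mean, among genes with a mean of at least 5 TPM. For E2F1 they were SLC29A1 (0.0832), WDR90 (0.0853) and RRM1 (0.0934), for E2F8 DLGAP5 (0.0586), MCM6 (0.0605) and KIF15 (0.0635), and for RBL1 GINS4 (0.0404), UQCC2 (0.0479) and RMI2 (0.0528). For E2F7 they were JADE1 (0.0556), SMC2 (0.0565) and FANCE (0.0573). RRM1 and MCM6 stand in the G1/S list and DLGAP5 in the G2/M list. The nearest to E2F6 were EBF3 (0.0326), TP53BP1 (0.0394) and KANSL1 (0.0446), to E2F2 LAGE3 (0.0643), LRRC45 (0.0787) and POLR3K (0.0861), and to E2F5 CHORDC1 (0.128), ASUN (0.136) and SLC25A32 (0.142). Profiles of the same 8 libraries share their scaling, so nearness is given as a description only.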

How the data were processed

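For the deposited table the authors aligned reads to hg19 (subread-align), ran featureCounts 1.6.4 and turned the gene counts into TPM, which keep no depth. Annotation, gene lengths and strand setting are not given in the sources used here. Group and replicate of each of the 8 libraries came from the labels, which do not say that replicates were separate cultures, so p-values measure only the spread between these libraries. Genes that reached 1 TPM in 2 or more libraries were tested as log2(TPM + 1) in limma 3.58.1 (R 4.3.3), with 1 coefficient per group. A mean-variance trend and Benjamini-Hochberg adjustment over all 14151 genes were used. The fit was tried on simulated data with independent noise in each library, which leaves out deviations that libraries share. Libraries with the same replicate number deviated together from their groups (correlation across genes 0.169 to 0.491 for the 6 pairs of groups), and on these values alone the numbers were taken to pair libraries. Members and gene lists were chosen with earlier results of these data known. Named are all members, up to 5 genes of each list with the lowest adjusted p for the combination, any list gene called against its list, and the 3 nearest patterns of each member called with the combination. Coordinates of genes are from GENCODE v44 on GRCh37, and promoters from RefSeq on GRCh38.p14, matched by symbol for 8 of 10 members. Alternatives were another pseudocount, other filters, quantile and median-ratio scaling, the replicate block, only the groups compared, no trend, the DEG rule and leaving out each library.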

Additional observations from a re-analysis of the deposited data

How the results depend on the processing

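Of 795 values of single members under alternative settings, 705 kept their direction and their side of the threshold, 51 were no longer past it, 12 passed it newly and 27 changed sign. Under the DEG rule the members called were 2 for palbociclib, 4 for the combination and 3 for the combination against TCP, and 19 G1/S target genes passed for palbociclib. With that rule under median-ratio scaling, an alternative added after the data were seen, 1 member passed for palbociclib (E2F7), 2 for the combination (E2F7 and E2F8) and 3 for the combination against TCP, and under quantile scaling 2, 3 and 3. With the replicate block, which pairs libraries by number, 3 members were called for the combination against palbociclib, in E2F1, E2F8 and RBL1 (adjusted p = 0.0235, 0.0356 and 0.0295), and the block also called E2F3 for the combination and E2F4 for the combination against TCP. The cause of these differences was not tested. Leaving out single libraries gave 3 to 6 called members for palbociclib and 4 to 6 for the combination against TCP. The sign changed in values close to 0. Under quantile and median-ratio scaling these were E2F2 with palbociclib (0.081 and 0.092), E2F2 with TCP (0.044 and 0.033), RBL2 with the combination (0.12 and 0.18) and, for the combination against palbociclib, E2F3 (0.026 and 0.024), E2F4 (0.0074 and 0.0074) and E2F5 (0.058 and 0.052, and 0.013 with a pseudocount of 0.1). Leaving out single libraries gave ranges across 0 for E2F1 (-0.20 to 0.32), E2F2 (-0.25 to 0.23), E2F3 (-0.18 to 0.067), E2F4 (-0.11 to 0.24), E2F5 (-0.045 to 0.26) and RBL2 (-0.28 to 0.045) with TCP, for E2F2 with palbociclib (-0.14 to 0.011), for E2F5 in the combination against palbociclib (-0.39 to 0.39), and for RBL2 in the combination against control (-0.10 to 0.0024) and against TCP (-0.094 to 0.23). Over the whole table, TCP had 61 calls, 197 with the replicate block and 0 when only TCP and control libraries were fitted. With TPM and 2 libraries a group, small changes of low genes such as E2F5 and E2F7 are the least certain.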
